A study of Mus musculus with 9 samples.

Results

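Nascent transcription was measured at 7 mouse genes whose products carry RNA polymerase II through elongation and termination: Polr2a, Cdk9, Ccnt1, Hexim1, Brd2, Pcf11 and Xrn2. A region was assigned to a gene when its centre lay inside the gene or within 2 kb of either end, and 8 of the 174289 regions in the table met this rule. Xrn2 held 2 of these regions and each of the other genes held 1. The assay was PRO-seq, a nuclear run-on method in which engaged polymerases add biotin-labelled nucleotides, so that the reads mark active polymerase and not stored RNA. Doxycycline treatment was sampled at 3 times, with 3 libraries each: 15 min and 30 min at 1 ng/μL, and 0 min with no doxycycline. All groups shared 1 genotype, mouse embryonic stem cells that lack Firre, whose product is a long non-coding RNA of the nucleus, and that carry a Firre transgene switched on by doxycycline. All groups also shared the medium, with serum, LIF and the inhibitors PD0325901 and CHIR99021, on gelatin. No group received doxycycline without the transgene, so an effect of the drug and an effect of Firre RNA cannot be told apart.

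After initiation, RNA polymerase II commonly stops a short way into a gene, held by the pausing factors DSIF and NELF. Release needs P-TEFb, a kinase made of CDK9 and a cyclin T, which phosphorylates DSIF, NELF and the repeated tail of the largest polymerase subunit, RPB1. HEXIM1 together with an abundant small nuclear RNA holds P-TEFb in an inactive complex, while BET proteins bind acetylated chromatin and take part in bringing active P-TEFb to genes. At the other end of a gene PCF11 binds the polymerase tail and takes part in cleavage of the RNA, and the exonuclease XRN2 degrades the RNA left on the polymerase. Polr2a encodes RPB1, Ccnt1 encodes cyclin T1 and Brd2 encodes a BET protein.

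All 8 regions lay near the starts of their genes, so the values below describe polymerase around gene starts and not along whole gene bodies or at 3' ends. Not every window covered the start. Each region was counted in a window of 600 bp, and none of the 8 windows overlapped another window of the table. Distances are given from the nearest RefSeq start, with the direction of the gene as positive. The Polr2a window (bidir_29150, chr11:69758120-69758719) ran from -86 to 513 bp and covered the start. The Cdk9 window (bidir_85554, chr2:32712512-32713111) was centred 28 bp before the start and also held the hairpins of Mir2861 and Mir3960, on the strand of Cdk9. The long non-coding RNA gene Gm33457 starts 498 bp from the centre of that window on the other strand.

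The Ccnt1 window (bidir_65181, chr15:98567565-98568164) was centred 129 bp before the start, inside the oppositely directed long non-coding RNA gene 9330020H09Rik. The Pcf11 window (bidir_143884, chr7:92669833-92670432) was centred 221 bp before the start. The first Xrn2 window (bidir_92283, chr2:147012700-147013299) was centred 1 bp into the gene and is called the Xrn2 start below. The second (bidir_92282, chr2:147011238-147011837) was centred 1461 bp before the start, did not reach it, and is called the upstream Xrn2 region.

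The windows of Hexim1 and Brd2 missed the annotated start. The Hexim1 window (bidir_32173, chr11:103115155-103115754) ended 571 bp before it, because the merged bidirectional region behind the window was 5890 bp wide and the window was placed at its middle. The median width of all merged regions was 342 bp, and that of Hexim1 stood at the 99.97th percentile. The Brd2 window (bidir_71756, chr17:34119235-34119834) began 66 bp after the nearest of 3 annotated starts, and the annotated span of H2-DMa, on the other strand, begins inside it. The strand of the reads counted is not given in the sources used here, so sense and upstream antisense transcription were not separated in any window. A read in the Ccnt1 or Brd2 window can therefore come from the neighbouring gene as well. In the Cdk9 window a read can come from the microRNA genes or from upstream antisense transcription of Gm33457, whose span lies outside it. Slc35g3 (chr11:69759884-69761844) lies before Polr2a on the same strand, and transcription past its end was not separated from that of Polr2a.

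**Figure D1:**
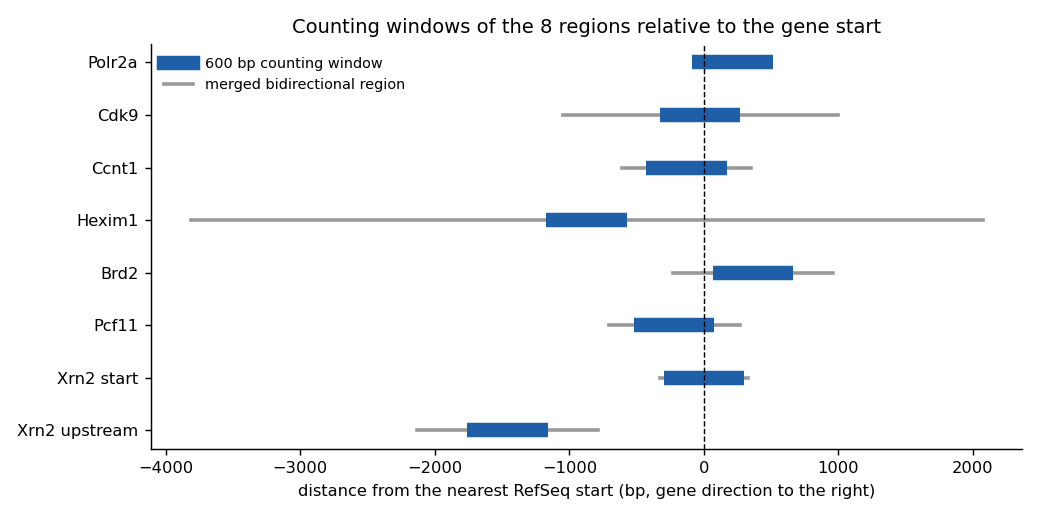
Position of the 8 counting windows (blue, 600 bp) and of the merged bidirectional regions they were taken from (grey), in bp from the nearest RefSeq start, with the gene running to the right. The Hexim1 merged region reaches from -3815 to 2074 bp, so its window lies before the start, and the upstream Xrn2 region ends 787 bp before the start.

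The promoters shown are those of the genes with the largest changes described below (Xrn2, Cdk9 and Pcf11) and that of Polr2a, in which a TATA box was found. The Xrn2 stretch lies in the window of the Xrn2 start. The sequence of the upstream Xrn2 region, where the larger Xrn2 change was found, is not shown. Each is the stretch of 250 bases before the RefSeq start on GRCm38.p6, read 5' to 3' on the strand of the gene, at chr2:147012749-147012998 (plus) for Xrn2, chr2:32712785-32713034 (minus) for Cdk9, chr7:92669913-92670162 (minus) for Pcf11 and chr11:69758634-69758883 (minus) for Polr2a. Capitals mark matches to the motifs named in the next paragraph.
Xrn2: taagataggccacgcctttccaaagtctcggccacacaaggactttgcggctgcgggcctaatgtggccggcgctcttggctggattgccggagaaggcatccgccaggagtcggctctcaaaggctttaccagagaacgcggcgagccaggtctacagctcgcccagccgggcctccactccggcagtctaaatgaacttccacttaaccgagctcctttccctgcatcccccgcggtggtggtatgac
Cdk9: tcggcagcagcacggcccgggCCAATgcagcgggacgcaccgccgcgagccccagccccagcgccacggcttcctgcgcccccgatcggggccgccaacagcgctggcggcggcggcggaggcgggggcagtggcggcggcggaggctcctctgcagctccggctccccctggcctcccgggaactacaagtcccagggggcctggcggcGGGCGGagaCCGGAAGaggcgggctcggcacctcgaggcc
Pcf11: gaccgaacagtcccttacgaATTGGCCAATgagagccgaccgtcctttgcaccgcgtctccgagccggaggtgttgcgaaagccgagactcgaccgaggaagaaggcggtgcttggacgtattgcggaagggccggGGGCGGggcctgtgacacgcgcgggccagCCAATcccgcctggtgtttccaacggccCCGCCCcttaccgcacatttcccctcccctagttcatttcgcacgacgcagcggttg
Polr2a: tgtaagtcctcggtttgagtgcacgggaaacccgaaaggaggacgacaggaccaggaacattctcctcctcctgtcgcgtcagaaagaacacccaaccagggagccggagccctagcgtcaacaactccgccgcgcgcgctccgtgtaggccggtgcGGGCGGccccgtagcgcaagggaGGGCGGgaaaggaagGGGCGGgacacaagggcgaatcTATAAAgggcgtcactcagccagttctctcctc

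Motifs were searched on both strands of the 7 stretches, with no mismatch allowed, and set beside their frequency in 32817 RefSeq promoters of the same length. The TATA box, searched as TATAAA, was found in 12.4% of all promoters and, of the 7, in Polr2a alone, at -33 to -28. Other spellings were not searched, among them the TATATAAG that the Hexim1 stretch holds. The GC box was searched as GGGCGG and occurred in 32.7% of all promoters. Polr2a held 3 GC boxes between -93 and -50, Ccnt1 and Pcf11 held 2 each, and Hexim1 and Cdk9 held 1 each, that of Cdk9 at -40 to -35. The motif CCAAT occurred in 33.8% of all promoters. Pcf11 held 3 of these, of which the pair at -230 to -221 stands on opposite strands, and Cdk9 and Hexim1 held 1 each. The ETS motif was searched as CCGGAAG and occurred in 6.91% of all promoters, in Cdk9 at -31 to -25 and once in Ccnt1. The E-box, searched as CACGTG (6.02% of all promoters), had no match in the 7 stretches. The same was true of the cyclic AMP response element TGACGTCA (1.55%). The Xrn2 and Brd2 stretches held none of the motifs, and the upstream Xrn2 region was not searched. For Brd2, which has 3 annotated starts, only the stretch before the start nearest the window was used.

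All 7 promoters were richer in CpG than the median promoter. They held 18 to 32 CpG dinucleotides and 56.4% to 78.8% G and C, against medians of 6 and 52.4% over all promoters. Cdk9 had the highest values, 32 CpG and 78.8%. The Cdk9 stretch also encodes both microRNA hairpins, and the mature mmu-miR-2861 (RefSeq, chr2:32712819-32712837, minus strand) lies at -53 to -35 with its last bases in the GC box. It is shown because reads from a transcript of this microRNA would fall in the Cdk9 window, and capitals mark its seed, bases 2 to 8.
mmu-miR-2861: gGGGCCUGgcggcgggcgg

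The libraries held 3813365 to 5980366 reads in all regions together, where 3 reads make 0.50 to 0.79 CPM, the unit used below (read counts adjusted for library size, with TMM factors between 0.971 and 1.02). Counts in the 8 regions were far above this floor, between 141 and 6379 reads in a library. Separate cultures are not named in the labels, so the spread between libraries on which every p-value rests may be technical. The fitted coefficient of variation was 15.1%. Library 3 of 15 min stood apart from the other 8 along the second principal component (72.4), which held 13.95% of all variance. Library 2 of 0 min lay at the other end of it (-44.6). On the first component that library lay at -32.2, away from libraries 1 (-70.5) and 3 (-63.9) of 0 min. Summed over 8 regions, Firre had 295 ± 37.1 CPM at 15 min and 785 ± 7.33 CPM at 30 min, against 3.34 ± 1.37 CPM at 0 min (SD, n = 3 each). Of 10 pluripotency markers, 8 had a region at their start and 7 of these a median of at least 5 CPM, with sums of 1663 to 1693 CPM at 15 min and 1598 to 1706 CPM at 30 min, against 1511 to 1630 CPM at 0 min. The part of this shift in the results below was not tested. Feeder fibroblast markers summed to 0.932 to 3.50 CPM, primitive endoderm markers to 5.10 to 8.26 CPM, mesoderm markers to 2.62 to 11.5 CPM, trophectoderm markers to 4.96 to 12.8 CPM and neuroectoderm markers to 17.7 to 30.4 CPM, and these ranges overlapped between the times.

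The 8 regions spanned a 29.7-fold range of signal, from Hexim1 at the top to Pcf11 at the bottom. All windows have 1 length, so their CPM need no scaling by length, but they lie at different places relative to the starts. Those of Hexim1, Brd2 and the upstream Xrn2 region do not cover a start. The order is therefore one of windows and not of transcription of the genes. Over all 9 libraries the Hexim1 window averaged 1119 CPM, Brd2 531 CPM, Polr2a 194 CPM, Ccnt1 110 CPM, Cdk9 91.7 CPM, the Xrn2 start 77.9 CPM, the upstream Xrn2 region 45.0 CPM and Pcf11 37.7 CPM. Among tested regions within 1 kb of a gene end, Hexim1 stood at the 99.9th percentile of mean signal and Pcf11 at the 79.6th. The window before the P-TEFb inhibitor gene Hexim1 had more signal than the window over the start of either P-TEFb subunit gene, at every time.

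Most steps of this order were wider than the spread between libraries. At 0 min the libraries of Hexim1 did not overlap those of Brd2 (ratio of means 2.10), those of Brd2 did not overlap those of Polr2a (2.63), and those of Polr2a did not overlap those of Ccnt1 (1.82). Cdk9 lay above the Xrn2 start (1.47), and the Xrn2 start above Pcf11 (1.69), in all libraries of 0 min. The P-TEFb subunit genes Ccnt1 and Cdk9 overlapped at 0 min (ratio 1.06), as did Pcf11 and the upstream Xrn2 region (1.14). The order differed at 15 min, where Cdk9 overlapped the Xrn2 start (ratio of the Xrn2 start to Cdk9 1.11) and the upstream Xrn2 region lay above Pcf11 in every library (1.66). At 30 min Cdk9 overlapped both Ccnt1 and the Xrn2 start, and the upstream Xrn2 region overlapped Pcf11.

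**Figure D2:**
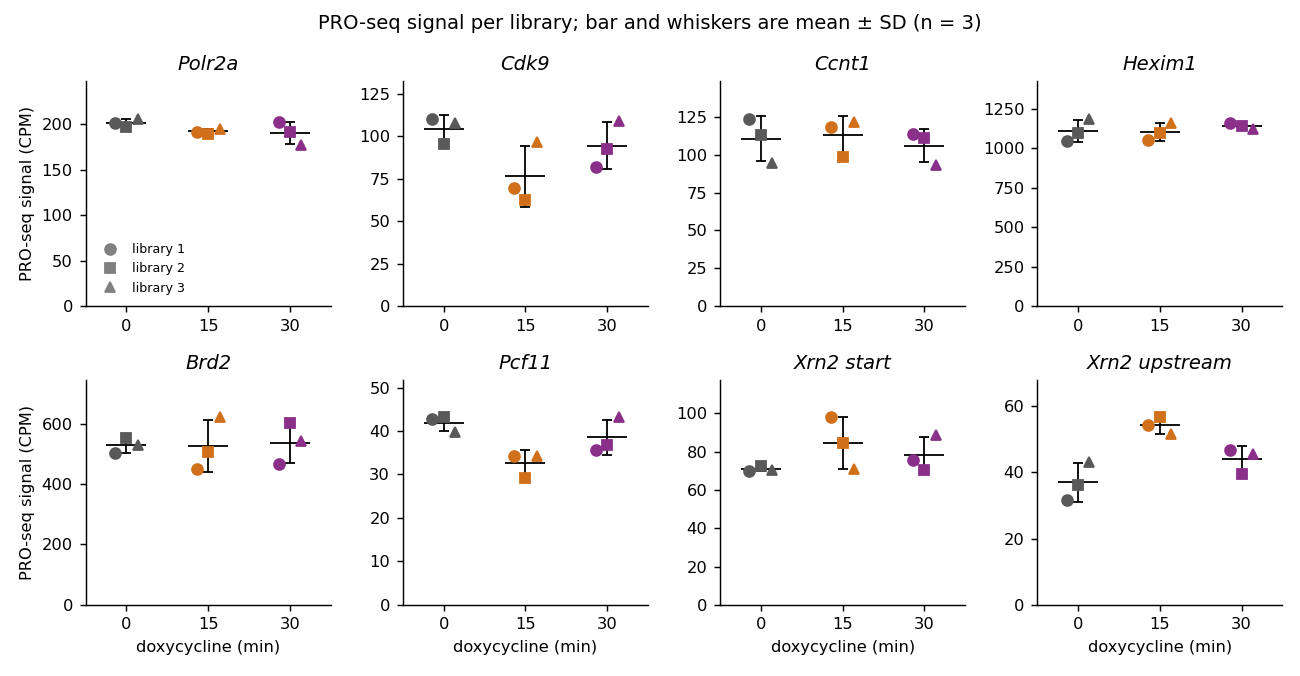
PRO-seq signal in CPM (vertical axis, from 0) in each library at 0, 15 and 30 min of doxycycline (horizontal axis) for the 8 regions, with symbols for libraries 1 to 3 and bars for mean ± SD (n = 3). The upstream Xrn2 region is higher in all 3 libraries of 15 min (51.5 to 56.6 CPM) than in all 3 of 0 min (31.5 to 43.0 CPM), and Cdk9 is low in 2 libraries of 15 min while the third, at 96.7 CPM, lies among those of 0 min.

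The comparison of 15 min with 0 min asks what changed first after doxycycline. The region upstream of Xrn2, the gene of the termination exonuclease, was higher at 15 min by 1.48-fold, and the promoter of Cdk9, the gene of the P-TEFb kinase, was lower at 0.728 times its signal. Pcf11 was lower in every library of 15 min but missed the threshold. Polr2a, Ccnt1, Hexim1 and Brd2 had log2 changes between -0.07 and 0.03. By edgeR's quasi-likelihood test with Benjamini-Hochberg adjustment over all 54299 tested regions, 2 of the 8 regions were called at 0.05, 1 higher and 1 lower, where 8.25% of all tested regions were called (4.29% higher and 3.96% lower), and 3 of the 8 had an unadjusted p under 0.05, where 23.2% of all did. All 8 regions passed the filter on low counts. In bulk libraries like these, a lower signal in every cell and a signal in fewer cells cannot be told apart. DESeq2's Wald test also called 2 of the 8, where it called 10.6% of the regions it adjusted.

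At the upstream Xrn2 region the 15 min libraries had 54.3, 56.6 and 51.5 CPM, against 31.5, 36.3 and 43.0 CPM at 0 min. The groups did not overlap, the lowest library of 15 min lying above the highest of 0 min. The log2 change was 0.56 ± 0.14 (SE; 95% interval 0.27 to 0.85; edgeR adjusted p = 0.0133). The call was lost when library 1 of 0 min was left out (log2 0.44, adjusted p = 0.111), and likewise for library 1 of 15 min (log2 0.56, adjusted p = 0.0513) and library 2 of 15 min (log2 0.51, adjusted p = 0.0683). Without 15 min library 3, which stood apart, it was 0.59 (adjusted p = 0.00860).

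At the Xrn2 start the 15 min libraries had 98.0, 84.6 and 70.7 CPM, against 70.1, 72.3 and 70.3 CPM at 0 min. Libraries 1 and 2 of 15 min lay above those of 0 min and library 3 lay among them, with a log2 change of 0.26 ± 0.13 (95% interval -0.01 to 0.52; edgeR adjusted p = 0.235). Summed over both regions Xrn2 had 152, 141 and 122 CPM at 15 min, against 102, 109 and 113 CPM at 0 min, and these groups did not overlap.

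At Cdk9 the 15 min libraries had 69.5, 62.7 and 96.7 CPM, against 110, 95.1 and 108 CPM at 0 min. Libraries 1 and 2 of 15 min lay below all of 0 min, and library 3 lay above the lowest 0 min library. The log2 change was -0.46 ± 0.14 (95% interval -0.75 to -0.17; edgeR adjusted p = 0.0433). Without 15 min library 3 it was -0.67 with adjusted p = 0.000961. The call was lost without 0 min library 1, 0 min library 3, 15 min library 1 or 15 min library 2 (log2 between -0.45 and -0.36, adjusted p = 0.103 to 0.188), in a fit of these times alone (adjusted p = 0.0618), and with TMM factors taken from regions at gene ends (-0.32, adjusted p = 0.122).

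That last setting bears on every direction given here, because regions within 1 kb of a gene end had a median log2 change of -0.15 at 15 min, against 0.02 over all tested regions. The median of the 8 regions was -0.01. Of the tested regions at gene ends 9.41% were called, 1.88% higher and 7.53% lower. Scaling on the gene ends moved the median of all regions to 0.18 and that of the 8 to 0.13, so the sign of a change near 0 depends on the scaling. The upstream Xrn2 region had a log2 change of 0.71 under it (adjusted p = 0.00259), and the Xrn2 start one of 0.41 (adjusted p = 0.0619).

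At Pcf11 the 15 min libraries had 34.3, 29.2 and 34.2 CPM, against 42.9, 43.2 and 39.9 CPM at 0 min. The groups did not overlap, with a log2 change of -0.37 ± 0.14 (95% interval -0.66 to -0.08), but the adjusted p was 0.111 in edgeR and 0.0759 in DESeq2. With TMM factors from gene ends the log2 change was -0.22 (edgeR adjusted p = 0.362). The groups also failed to overlap at Polr2a, where the difference was small: 192, 189 and 195 CPM at 15 min, against 201, 197 and 206 CPM at 0 min. Its log2 change was -0.07 ± 0.10 (95% interval -0.27 to 0.13; edgeR adjusted p = 0.719). In all, 3 of the 8 regions had groups that did not overlap, where 25.5% of all tested regions did.

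The inhibitor gene Hexim1 had 1050, 1099 and 1160 CPM at 15 min, against 1049, 1097 and 1189 CPM at 0 min. Its log2 change was -0.01 ± 0.08, with a 95% interval of -0.17 to 0.15, the narrowest of the 8. Ccnt1, the cyclin partner of CDK9, had 119, 98.4 and 122 CPM at 15 min, against 124, 113 and 94.7 CPM at 0 min, a log2 change of 0.03 ± 0.12 (95% interval -0.23 to 0.28). Brd2 had 451, 506 and 622 CPM at 15 min, against 504, 555 and 530 CPM at 0 min, and its log2 change was -0.01 ± 0.11 (95% interval -0.23 to 0.21). The groups of 15 min and 0 min overlapped at these 3 genes.

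**Figure D3:**
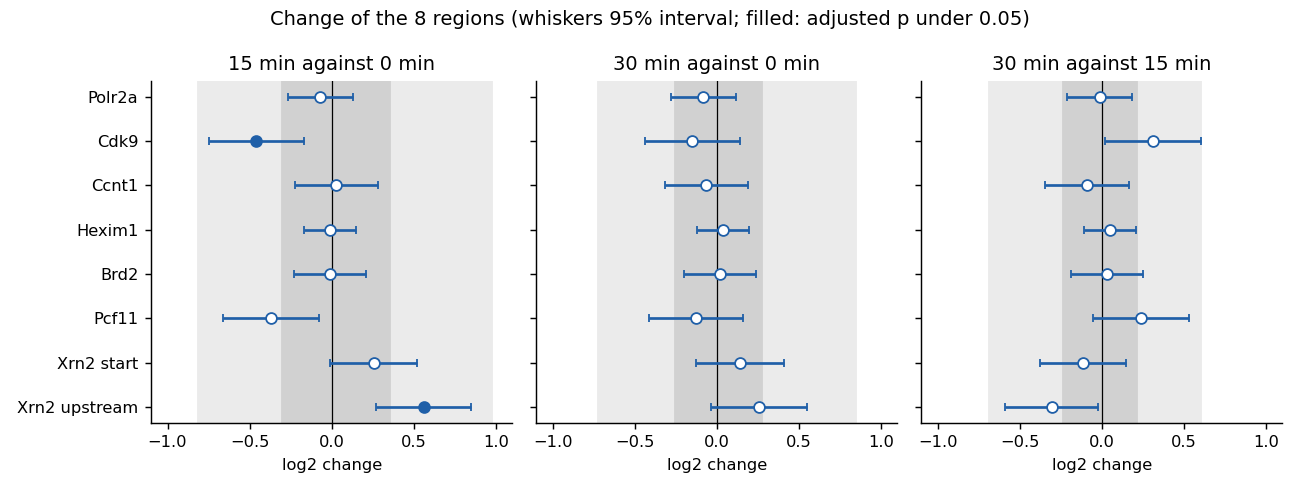
Log2 change (horizontal axis) of the 8 regions in each comparison, with 95% intervals from the edgeR fit and filled points where the adjusted p is under 0.05. Dark grey holds the middle 50% and light grey the middle 90% of all tested regions; at 15 min against 0 min the upstream Xrn2 region, Cdk9 and Pcf11 lie outside the dark band (-0.30 to 0.35) and inside the light one (-0.82 to 0.98).

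At 30 min against 0 min no change of the 8 regions passed the threshold. The farthest from 0 was that of the upstream Xrn2 region at 1.19-fold, followed by Cdk9 at 0.902 times its 0 min signal. The same 0 min libraries serve this comparison and that of 15 min. By edgeR 0 of the 8 regions were called, where 1.74% of all tested regions were. An unadjusted p under 0.05 was found at 0 of the 8, where 15.2% of all had one. DESeq2 called 0, where it called 2.75% of the regions it adjusted. The upstream Xrn2 region had 46.8, 39.3 and 45.5 CPM at 30 min, against 36.9 ± 5.77 CPM at 0 min (SD, n = 3), and a log2 change of 0.26 ± 0.14 (95% interval -0.04 to 0.55; adjusted p = 0.410). Libraries 1 and 3 of 30 min lay above all of 0 min and library 2 did not.

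The Xrn2 start had 75.8, 70.3 and 88.9 CPM at 30 min, against 70.9 ± 1.2 CPM at 0 min, a log2 change of 0.14 ± 0.13. Cdk9 had 82.0, 92.3 and 109 CPM at 30 min, against 104 ± 8.15 CPM at 0 min, a log2 change of -0.15 ± 0.14 (95% interval -0.44 to 0.14). Its libraries 1 and 2 lay below those of 0 min and library 3 among them. Pcf11 had 35.7, 36.9 and 43.1 CPM at 30 min, against 42.0 ± 1.84 CPM at 0 min, a log2 change of -0.13 ± 0.14.

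The other genes differed little in their estimates at 30 min. Polr2a had 202, 191 and 177 CPM at 30 min, against 201 ± 4.79 CPM at 0 min, a log2 change of -0.08 ± 0.10 (95% interval -0.28 to 0.12). Hexim1 had 1162, 1143 and 1122 CPM at 30 min, against 1112 ± 71.2 CPM at 0 min, a log2 change of 0.04 ± 0.08 (95% interval -0.12 to 0.20). Ccnt1 had 113, 111 and 93.4 CPM at 30 min, against 110 ± 14.7 CPM at 0 min, and Brd2 had 467, 601 and 542 CPM at 30 min, against 529 ± 25.2 CPM at 0 min. The log2 changes were -0.06 ± 0.12 for Ccnt1 and 0.02 ± 0.11 for Brd2, and the groups of 30 min and 0 min overlapped at all 8 regions, where 20.4% of all tested regions had groups that did not.

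At 30 min against 15 min no change of the 8 regions passed the threshold. The widest differences were at the upstream Xrn2 region, which had less signal at 30 min, and at Cdk9 and Pcf11, which had more. The upstream Xrn2 region averaged 43.9 ± 4.0 CPM at 30 min and 54.1 ± 2.57 CPM at 15 min (SD, n = 3 each), with no overlap between the groups, a log2 change of -0.31 ± 0.14 and an unadjusted p of 0.0365 (edgeR adjusted p = 0.474). Cdk9 averaged 94.4 ± 13.7 CPM at 30 min and 76.3 ± 18.0 CPM at 15 min, a log2 change of 0.31 ± 0.14 and an unadjusted p of 0.0373 (edgeR adjusted p = 0.477). Pcf11 averaged 38.6 ± 3.99 CPM at 30 min and 32.6 ± 2.96 CPM at 15 min, also with no overlap, a log2 change of 0.24 ± 0.14 (edgeR adjusted p = 0.623).

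By edgeR 0 of the 8 regions were called at 30 min against 15 min, where 0.704% of all tested regions were. The 2 unadjusted p under 0.05 stand beside 9.63% of all regions, and the 2 regions without overlap beside 16.0%. DESeq2 called 0, where it called 2.18% of the regions it adjusted. Without 15 min library 3 the Cdk9 log2 change was 0.52 and was called (adjusted p = 0.0467). When library 2 of 15 min or library 3 of 30 min was left out it was 0.20 (adjusted p = 0.782 and 0.784). The other 5 regions had log2 changes between -0.12 (the Xrn2 start) and 0.05 (Hexim1). The 15 min libraries enter both this comparison and that of 15 min with 0 min.

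Counts were also summed over the regions of each gene, which adds a second region for Xrn2 alone among the 7. On these sums 2 of the 7 genes were called at 15 min against 0 min, where 13.3% of 21899 tested genes were. Xrn2 rose by a log2 of 0.37 ± 0.10 (edgeR adjusted p = 0.0283) and Cdk9 fell by 0.46 ± 0.14 (edgeR adjusted p = 0.0464), while Pcf11 had -0.37 ± 0.13 (adjusted p = 0.0753). The Xrn2 call on the sum was lost in DESeq2 (log2 0.32, adjusted p = 0.0555, where 15.9% of the genes it adjusted were called), without the filter on low counts (adjusted p = 0.0565), and without any 1 of the 3 libraries of 0 min or of libraries 1 and 2 of 15 min (adjusted p = 0.0562 to 0.136). The Cdk9 call on the sum was lost without 0 min library 1 or 3, 15 min library 1 or 2, or 30 min library 2 (adjusted p = 0.0544 to 0.169). It was also lost with TMM factors from gene ends (log2 -0.32, adjusted p = 0.0795) and in a fit of these times alone (adjusted p = 0.0572). By edgeR 0 of the 7 genes were called at 30 min against 0 min and at 30 min against 15 min, where 2.32% and 0.735% of genes were. At an unadjusted p under 0.05 there were 0 genes at 30 min against 0 min and 1, Cdk9, at 30 min against 15 min.

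The upstream and start regions of Xrn2 were set against each other with edgeR's diffSpliceDGE. At 15 min against 0 min the upstream region changed by a log2 of 0.20 ± 0.16 more than the gene as a whole (adjusted p = 0.933) and the start by -0.11 ± 0.14 (adjusted p = 1.00). Neither was called in any comparison, where 0.456%, 0.00262% and 0.0262% of regions were at 15 min against 0 min, 30 min against 0 min and 30 min against 15 min, and neither had an unadjusted p under 0.05. A difference in change between the 2 regions was therefore not shown.

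The wider machinery was described with a list of 111 genes in 11 groups, of which 97 had a tested region within 1 kb of their start. Outside the 7 genes above, 7 of 90 moved at 15 min against 0 min, 2 higher and 5 lower, a share of 7.78%, beside 9.41% of tested regions at gene ends. Their median log2 change was -0.08, beside -0.15 for all tested regions at gene ends. Of the 5 super elongation complex genes 2 were lower. Mllt3, which encodes AF9, had 2.97 ± 0.286 CPM at 15 min and 7.96 ± 0.691 CPM at 0 min (log2 -1.41 ± 0.29; edgeR adjusted p = 0.00317), the largest change of the list and a low level. Aff1, a scaffold of that complex, had 65.6 ± 9.22 CPM at 15 min and 89.9 ± 9.03 CPM at 0 min (log2 -0.46 ± 0.13; edgeR adjusted p = 0.0242).

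Among the elongation factors and kinases of the polymerase tail, 1 of 16 was higher and 1 lower. Tcea1, the gene of the cleavage-stimulating elongation factor TFIIS, had 208 ± 3.92 CPM at 15 min and 165 ± 15.8 CPM at 0 min (log2 0.33 ± 0.10; edgeR adjusted p = 0.0384). Mnat1, which encodes the assembly factor of the CDK7 kinase, had 25.6 ± 1.38 CPM at 15 min and 40.0 ± 3.43 CPM at 0 min (log2 -0.64 ± 0.15; edgeR adjusted p = 0.00775). Ppp1r10, which encodes PNUTS, a phosphatase subunit that acts in termination, had 261 ± 28.0 CPM at 15 min and 197 ± 22.1 CPM at 0 min (log2 0.41 ± 0.10; edgeR adjusted p = 0.0148). It was the single called gene among the 6 others of the termination group. The polymerase subunit gene Polr2h was lower (log2 -0.41 ± 0.13; edgeR adjusted p = 0.0489), as was the Integrator subunit gene Ints10 (-0.46 ± 0.14; edgeR adjusted p = 0.0421). The 8 called genes of the list, Cdk9 included, became 12 when library 3 of 15 min was left out, 5 when library 3 of 30 min was and 4 when library 3 of 0 min was. Leaving out library 2 of 15 min gave 3, and leaving out library 1 of either 0 min or 15 min gave 2. Mllt3 and Mnat1 were called in 9 of 9 fits that left out 1 library, Ppp1r10 in 6, Aff1 in 5, Ints10 in 3, and Polr2h and Tcea1 in 2 each. With TMM factors from gene ends Polr2h (-0.27, adjusted p = 0.216), Aff1 (-0.31, adjusted p = 0.115) and Ints10 (-0.31, adjusted p = 0.208) were not called. Tcea1 was not called with DESeq2 size factors (adjusted p = 0.0519), without the filter (0.234) or with these times alone (0.0802). The Polr2h call was lost without the filter (adjusted p = 0.0694), and in a fit of these times alone those of Polr2h (0.0718) and Ints10 (0.0742) were.

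No other tested gene of the P-TEFb, BET or cleavage groups was called. In the P-TEFb group Ccnt2 had a log2 change of -0.01 ± 0.12 at 15 min against 0 min, Hexim2 -0.36 ± 0.15 (adjusted p = 0.129), Larp7, which stabilises the inhibitory RNA, 0.33 ± 0.14 (adjusted p = 0.151), and Mepce, which caps that RNA, -0.26 ± 0.14 (adjusted p = 0.279). None of the 3 other BET genes passed. Of the 18 other cleavage and polyadenylation genes 0 were called, and their median was 0.01. None of the 5 pausing factor genes was called.

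At 30 min against 0 min edgeR called 0 of the 90 other genes, as did DESeq2, and 8 of the 97 genes on the list had an unadjusted p under 0.05, where 15.2% of all tested regions did. At 30 min against 15 min edgeR and DESeq2 called 0 of the 90, and 6 of the 97 had an unadjusted p under 0.05, where 9.63% of all tested regions did. The share of all tested regions called in these comparisons was given above as 1.74% and 0.704%.

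**Figure D4:**
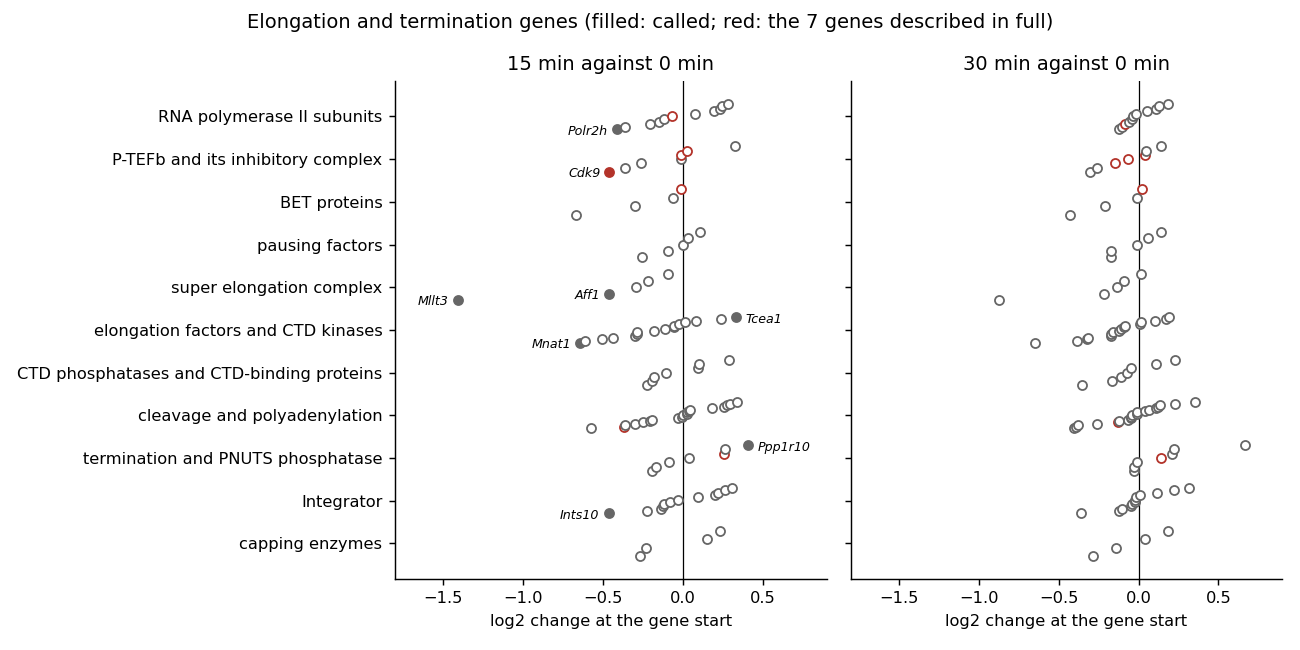
Log2 change at the gene start (horizontal axis) of the 97 tested genes of the elongation and termination list, in 11 groups, spread vertically within a group for visibility, at 15 min and 30 min against 0 min. Filled points passed the threshold (8 at 15 min, 0 at 30 min), red points are the 7 genes described in full, and Mllt3 lies farthest from 0 at -1.41.

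Signal of the 7 genes across the 9 libraries was compared with that of other genes by Pearson's correlation of log2(CPM + 1) of the summed counts, over about 12500 genes with a mean of at least 20 CPM that share no region with the gene. All values come from the same 9 libraries and are descriptions only. The pattern of Cdk9 was most like that of Atp6v0a2 (r = 0.984) and Tapt1 (0.976), and that of Xrn2 most like that of Inpp5k (0.964) and Gm47052 (0.960). Pcf11 was closest to Rexo5 (0.963) and 9330133O14Rik (0.960), Ccnt1 to Naa40 (0.978) and Ugt1a6b (0.931), and Hexim1 to Fam174c (0.966) and Rpl14 (0.956). Polr2a was closest to Tmco3 (0.959) and Vash2 (0.937), and Brd2 to Wtap (0.915) and Sel1l (0.906). Among the 7 genes themselves Cdk9 and Pcf11 ran together (r = 0.853, n = 9 libraries), and Xrn2 ran against both (-0.701 with Cdk9 and -0.606 with Pcf11). Ccnt1 showed no such relation with its kinase partner Cdk9 (r = -0.04).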

How the data were processed

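The deposited table gives raw read counts of 9 PRO-seq libraries in 174289 bidirectional regions. The other values are mm10 positions from 2 deposited lists, of the merged regions and of their 600 bp windows. HISAT2, featureCounts and DESeq2 1.26.0 are named by the submitters' processing notes, Tfit and muMerge by the file names. Settings and counted strand are not given in the sources used here. Libraries held 1% Drosophila S2 nuclei per the labels' protocols. Counts of these were not used, so changes are relative to other mouse regions.

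Genes, starts and promoters came from RefSeq tables of GRCm38.p6, the assembly of mm10. Regions were filtered with filterByExpr (119990 removed, 54299 tested), scaled with TMM and fitted together, time as a factor, with edgeR 4.0.16 in R 4.3.3 (limma 3.58.1, DESeq2 1.42.0 as an alternative). The SE is the log2 change divided by the root of F, and intervals use the fit's degrees of freedom. The procedure was tested on simulated counts that shared a fixed dispersion and held no library that stood apart. That test does not show how calls behave in the present libraries. The test of regions within a gene has little power for genes with 2 regions.

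All 7 genes are named, with pathway genes that were called (at most 3 a group) and the 2 genes most like each of the 7. Genes, lists and tests were chosen with earlier results of these data known. Alternatives were DESeq2 size factors, TMM on gene ends, no filter, 20 counts in 3 libraries, only the 2 times compared, a replicate block, windows that overlap no other, centres inside genes, DESeq2's Wald test, and each library left out. The main fit did not pair libraries by replicate number. Of 9 same-numbered pairs 2 had a correlation of deviations over 0.1, which does not settle whether the numbers pair the libraries.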

Additional observations from a re-analysis of the deposited data

How the results depend on the processing

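At 15 min against 0 min, 2 of the 8 regions were called. The count was 1 with TMM factors from gene ends and with only the 2 times compared (Cdk9 lost in both). It was 0 when the centre had to lie inside the gene, since the centres of the called regions lie before their starts. It ranged from 0 to 2 with each library left out. On summed counts 2 genes were called, against 1 with TMM factors from gene ends, no filter, only the 2 times compared or DESeq2, 0 with centres inside the gene, and 0 to 2 with each library left out. Of the listed genes 8 were called, 4 with only the 2 times compared, and 2 to 12 with each library left out. At 30 min against 0 min the listed genes called were 0, but 1 with TMM factors from gene ends and with no filter, and 0 to 1 with each library left out (1 without 0 min library 2 or 15 min library 3). At 30 min against 15 min, regions, summed genes and listed genes each had 0 calls, and 0 to 1 with each library left out (1 without 15 min library 3). Where no construction of the setting shows it, the cause was not tested.

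With the replicate block 2 regions were called at 15 min, and over all regions 4804, 1107 and 421 were called at 15 min against 0 min, 30 min against 0 min and 30 min against 15 min, beside 4479, 945 and 382 without it. In 4 of 9 libraries the best correlation was with the same number. Over all regions the counts with each library left out ranged from 2123 to 6412, 171 to 1510 and 154 to 548 in the same order. The highest of each came without 15 min library 3, and the lowest without 15 min library 2, 0 min library 1 and 30 min library 2. The share of calls that were higher was 52.0% at 15 min against 0 min 79.3% with TMM factors from gene ends, 47.3% with DESeq2 size factors and 43.5% with no filter, 71.4% at 30 min against 0 min, 88.7% with those factors and 57.8% with no filter, and 30.4% at 30 min against 15 min and 18.6% with those factors. The called estimates of the 8 regions, the summed genes and the listed genes kept their sign under these alternatives, and the neighbouring regions were not rerun. With 141 to 6379 reads per region and library, the intervals hold both counting error and the spread between libraries. The share of each was not separated.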

Other observations

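Outside the 7 genes, 22 other regions had their centre within 25 kb of one of them, a limit chosen after the data had been seen, and 18 of these were tested. By edgeR 3 were called at 15 min against 0 min and 0 in the other comparisons, while 8.25%, 1.74% and 0.704% of all tested regions were called. Before Hexim1, a region near Plcd3 and Acbd4 (chr11:103101462-103102061, 14.6 kb from the gene) had a log2 change of -0.55 ± 0.17 (edgeR adjusted p = 0.0420). One near Acbd4 (chr11:103106036-103106635, 9.99 kb away) had -0.53 ± 0.16 (edgeR adjusted p = 0.0358), beside -0.01 ± 0.08 at Hexim1 itself. After the end of Ccnt1, a region 23.3 kb away (chr15:98515113-98515712) had 0.66 ± 0.16 (edgeR adjusted p = 0.00840), beside 0.03 ± 0.12 at the Ccnt1 start, and 0.53 ± 0.16 at 30 min against 0 min (adjusted p = 0.0782). The differences between these regions and the gene starts were not tested. Of the 7 genes, 2 had no other region within this limit, Brd2 and Xrn2.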
